A study of Mus musculus with 16 samples.

Results

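β-cat cOE mice, which make a form of β-catenin that resists degradation in forebrain excitatory neurons, were compared with control mice by RNA sequencing of the prefrontal cortex. The comparison took the 4 libraries with the genotype label Bcat cOE and the 4 with the label Control, 8 of the 16 libraries of the series. The study asked which transcripts differ when β-catenin is excessive, and also sequenced 4 APC cKO libraries and 4 libraries of mice lacking both genes (APC/Bcat cKO). β-cat cOE mice carried the ctnnb1 fl(ex3)/+ allele, with loxP sites around exon 3 of 1 copy of the β-catenin gene, together with the CamKIIα-Cre-93 transgene. APC cKOs (APC fl/fl) and APC/β-cat cKOs (which also carry ctnnb1 fl/fl) carried the same Cre line. Controls were littermates without Cre, pooled from all the lines, so every Cre library belonged to a mutant, and which floxed alleles each control carried is not given in the sources used here. Mice of 2 to 3 months and both sexes were used. The Cre acts mainly in excitatory neurons of the forebrain, whereas the RNA came from all cells of the dissected tissue, so a level gives the sum over recombined and other cells.

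β-catenin has a place at the cell membrane, where it links cadherins to the actin cytoskeleton, and another in the canonical Wnt pathway. Without a Wnt signal, a destruction complex of APC, Axin, the kinase GSK3 and casein kinase 1 phosphorylates its N-terminus and marks it for degradation. With a Wnt signal, β-catenin accumulates, enters the nucleus and acts with TCF/LEF factors on target genes such as Axin2, Lef1, Nkd1 and Notum, several of which feed back on the pathway. Deleting exon 3 removes the phosphorylated stretch and keeps the rest of the protein.

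The floxed exon is shown because its loss is what sets the β-cat cOEs apart. Exon 3 of Ctnnb1 lies at chr9:120950522-120950749 on the plus strand of mm10, and its 228 bases are all coding (GENCODE, in a transcript of 15 exons). It makes up 9.7% of the coding sequence and encodes 76 residues. Capitals mark the codons of serines 33, 37 and 45 and of threonine 41, the sites that GSK3 and casein kinase 1 phosphorylate.
Ctnnb1 exon 3: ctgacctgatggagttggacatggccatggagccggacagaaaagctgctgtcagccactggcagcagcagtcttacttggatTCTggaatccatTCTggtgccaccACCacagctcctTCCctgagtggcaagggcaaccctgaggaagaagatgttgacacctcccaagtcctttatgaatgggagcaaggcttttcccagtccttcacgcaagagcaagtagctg

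The level of the whole Ctnnb1 gene differed between the groups by less than the spread. In β-cat cOE replicates 1 to 4 it was 165.8, 158.7, 155.3 and 158.9 FPKM (fragments per kilobase of transcript, scaled to the mapped fragments of the library), and in control replicates 1 to 4 it was 165.8, 160.8, 155.5 and 157.3 FPKM. The groups overlapped, and the difference on the log2(FPKM + 0.1) scale was -0.002 ± 0.046 (SE, limma adjusted p = 0.999). A gene value does not show which exons a transcript holds, so the deletion itself could not be checked here. Nor does it measure the protein, which the paper found raised by immunoblot in the prefrontal cortex of this line, much as in APC cKOs. Apc, which is intact in this line, was between 38.8 and 49.5 FPKM in β-cat cOEs and between 40.8 and 50.1 FPKM in controls, a difference of 0.02 ± 0.20 (SE). Against both lines that lack Apc, the β-cat cOEs were higher, by 1.97 over APC cKOs (limma adjusted p = 0.000426) and by 2.16 over APC/β-cat cKOs (adjusted p = 4e-05).

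The libraries were those of cortex in both groups. Slc17a7, the vesicular glutamate transporter of cortical excitatory neurons, was between 435 and 532 FPKM in β-cat cOEs and between 420 and 496 FPKM in controls, and Camk2a, a CaMKII subunit of the same cells, was between 629 and 718 FPKM and between 668.5 and 692.8 FPKM. Between 5832 and 6217 genes were listed at 0 in β-cat cOEs and between 5883 and 6451 in controls, and without fragment counts the sequencing depth is unknown. Control replicate 1 was the only female library of the 8, with Xist at 25.2 FPKM and at most 0.0147 FPKM in the other 7. Genes of neighbouring regions varied among libraries of the same group. The median of 14 striatal projection neuron genes, taken relative to the control mean on the log2 scale, was -0.73, 0.32, -0.23 and 0.89 in β-cat cOE replicates 1 to 4 and 1.35, 0.13, -0.73 and -0.68 in control replicates 1 to 4. Drd2, a receptor that marks striatal neurons, accordingly ranged from 0.45 to 5.57 FPKM in β-cat cOEs and from 0.354 to 9.05 FPKM in controls. Eomes, a marker of olfactory bulb projection neurons in the adult, reached 10.5 FPKM in β-cat cOE replicate 1, lay between 0.846 and 2.16 FPKM in replicates 2 to 4, and ran from 0.175 to 5.32 FPKM in controls. The labels give no dissection or sequencing batch.

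Very few genes differed beyond the spread between libraries. Of 13978 genes that averaged 0.5 FPKM or more across all 16 libraries, 2 passed an adjusted p under 0.05 in limma, or 0.0143%. Fam131b was higher and Casp2 lower in β-cat cOEs. The third smallest adjusted p was 0.309. At an unadjusted p under 0.05 there were 321 genes higher (2.3%) and 387 lower (2.77%), and the groups did not overlap in 204 genes higher (1.46%) and 226 lower (1.62%). The difference was under 0.2 on the log2 scale in 84.7% of genes, and the median over all genes was -0.004. The median standard error was 0.10. A difference of at least 1 was seen in 89 genes, of which 37 have the symbols of small nucleolar RNAs, microRNAs or other short noncoding RNAs, which a poly(A) library captures poorly. Only 8 of the 89 had groups that did not overlap, and none was called.

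**Figure D1:**
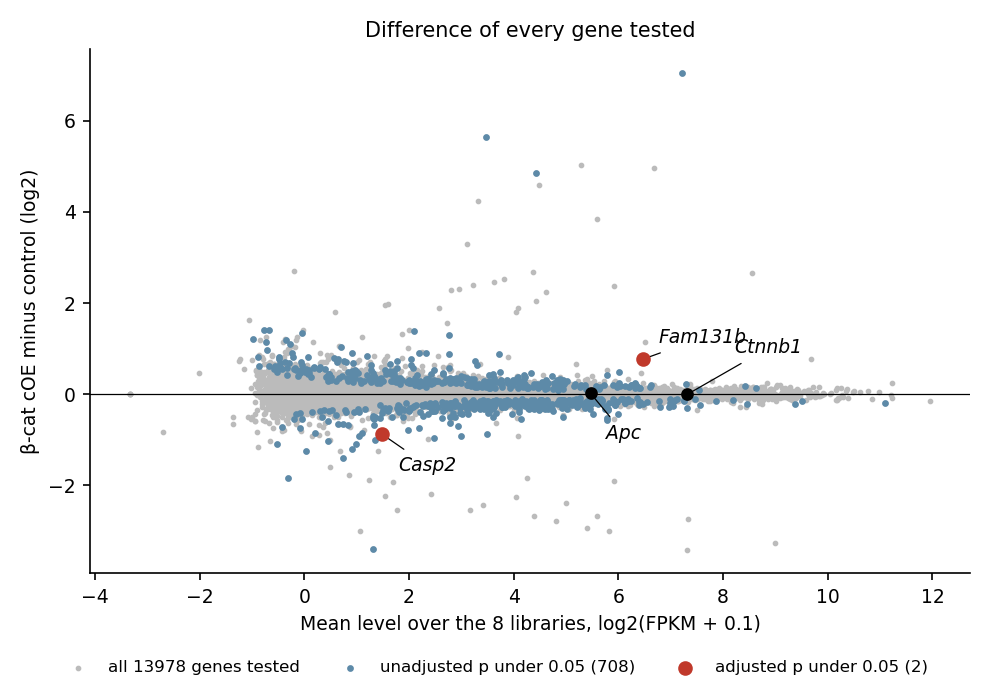
Each point is a gene, with its mean level over the 8 libraries as log2(FPKM + 0.1) on the x axis and its difference between β-cat cOE and control (log2) on the y axis. Most of the 13978 genes lie close to 0, Fam131b and Casp2 are marked as the 2 called genes, and Ctnnb1 and Apc sit on the zero line.

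Both called genes lie close together on chromosome 6. Fam131b encodes a protein of little-studied function that neurons express. Fam131b (chr6:42315312-42324640, mm10) was 110, 112, 117 and 105 FPKM in β-cat cOE replicates 1 to 4 and 63.2, 64.1, 67.1 and 66.7 FPKM in control replicates 1 to 4. Every β-cat cOE library was far above every control, and the means were 111 ± 4.98 and 65.3 ± 1.92 FPKM (SD, n = 4 each). Fam131b thus rose to 170.2% of the control mean, by 0.77 ± 0.05 on the log2 scale (SE, limma adjusted p = 2.9e-06). In an exact permutation test p was 0.0286, the smallest that 4 libraries against 4 can give.

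Casp2 (chr6:42265039-42282496), which encodes the protease caspase-2 of apoptosis and cell stress, was 2.20, 1.59, 1.91 and 1.83 FPKM in β-cat cOE replicates 1 to 4 and 3.36, 3.42, 3.52 and 3.85 FPKM in control replicates 1 to 4. All β-cat cOE libraries were below all controls, at 53.2% of the control mean. The difference was -0.88 ± 0.12 (SE, limma adjusted p = 0.0147). The call was lost in 9 of 17 alternative fits, with an adjusted p of up to 0.925, while the difference stayed below 0 in each. It was lost with sex as a covariate (adjusted p = 0.0564), with only these 2 groups in the fit (adjusted p = 0.0906), and without β-cat cOE replicate 2, 3 or 4 or control replicate 2, 3 or 4 (adjusted p between 0.0559 and 0.101).

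The genes on either side showed the same separation without passing the adjusted test. Gstk1, a glutathione transferase of mitochondria and peroxisomes, was 4.74, 5.30, 5.10 and 6.66 FPKM in β-cat cOEs and 9.54, 9.57, 10.97 and 11.4 FPKM in controls. The groups did not overlap, and the difference was -0.92 ± 0.17 (SE, adjusted p = 0.309). Zyx, which encodes zyxin, a protein of focal adhesions, was 18.5, 18.5, 20.3 and 18.5 FPKM in β-cat cOEs and 15.5, 14.8, 13.0 and 14.98 FPKM in controls, also without overlap (difference 0.38 ± 0.08, SE, adjusted p = 0.726). The 4 genes span 112.5 kb, from 42245935 to 42358395, with 2 lower and 2 higher. In the 9 further genes tested up to 2 Mb away the groups overlapped, and differences ranged from -0.15 for Ephb6 to 0.09 for Clec5a.

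The other Cre lines had similar levels of both genes. Fam131b was at 107 ± 5.80 FPKM in APC cKOs and 110.0 ± 6.86 FPKM in APC/β-cat cKOs, and Casp2 at 1.86 ± 0.25 and 1.67 ± 0.15 FPKM (SD, n = 4 each). Set directly against these lines, the β-cat cOEs differed by 0.05 and 0.02 for Fam131b (limma adjusted p = 0.902 and 0.935), with a standard error of 0.05 for each. For Casp2 the difference was 0.01 against APC cKOs and 0.16 against APC/β-cat cKOs, with a standard error of 0.12 (adjusted p = 0.996 and 0.623). For Gstk1 the differences were -0.03 and -0.24, and for Zyx -0.18 and -0.15, none of them past the test. By immunoblot the paper found β-catenin protein raised in β-cat cOEs and APC cKOs and strongly reduced in APC/β-cat cKOs. All 3 mutant lines carry Cre and share these controls, which lack it. A response to Cre and one to DNA carried with it cannot be told apart, and the part of β-catenin was not tested.

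**Figure D2:**
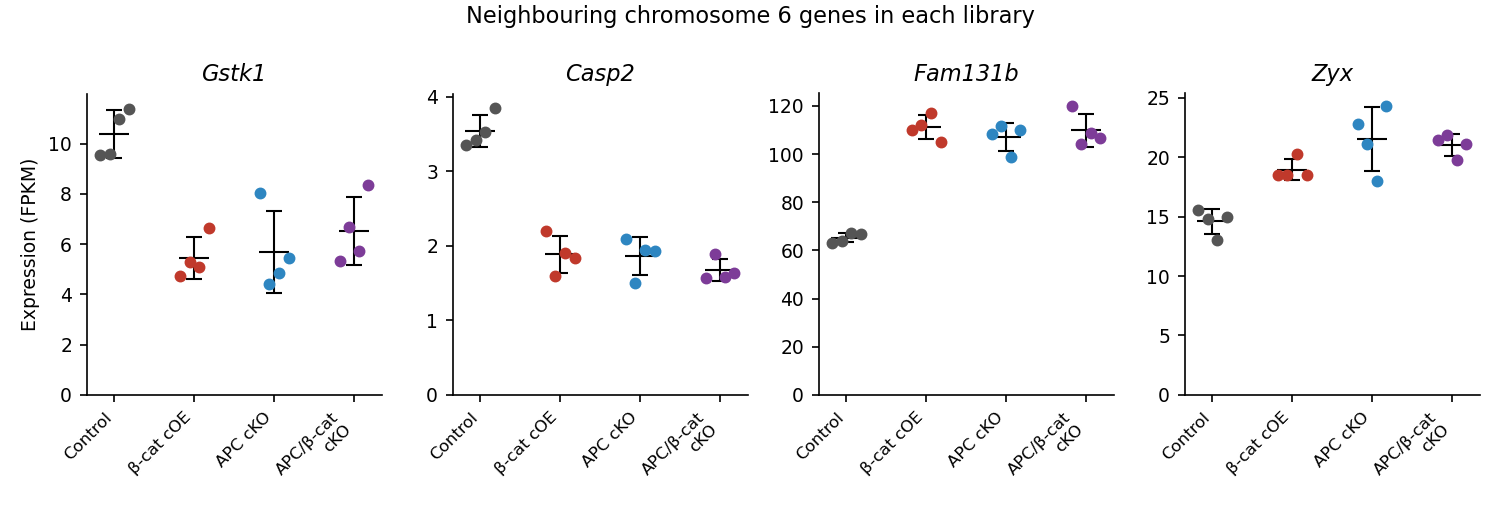
Expression (FPKM) of 4 neighbouring chromosome 6 genes in each library of the 4 genotypes, with points for libraries, a horizontal bar for the mean and whiskers for the SD (n = 4). The β-cat cOE points lie apart from the controls in every panel, and so do those of the other Cre lines, with some Gstk1 and Zyx points above all β-cat cOEs.

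Outside this stretch of chromosome 6, the leading genes had varied functions and differences of varied size, and none of them was called. They were chosen for the smallest unadjusted p among genes with non-overlapping groups and at least 1 FPKM on average, so their values are a description. Among the 15 higher genes Fut10 had the widest difference, at 0.91. Tusc1, a candidate tumour suppressor, was 4.25, 5.10, 5.04 and 5.28 FPKM in β-cat cOEs and 3.86, 2.47, 3.67 and 2.63 FPKM in controls. Lmo3, a LIM-domain transcriptional cofactor of forebrain neurons, was 57.1, 70.8, 60.4 and 62.5 FPKM against 48.2, 51.2, 39.9 and 47.5 FPKM. The lowest β-cat cOE library was above the highest control for both. Jun, a subunit of the transcription factor AP-1 and a member of the immediate early list, was between 17.2 and 18.4 FPKM in β-cat cOEs and between 13.4 and 15.03 FPKM in controls (difference 0.31 ± 0.08, SE, adjusted p = 0.946). In APC/β-cat cKOs, where β-catenin is deleted, Jun differed from the same controls by 0.46 (adjusted p = 0.0245).

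P2ry13 and Ly86, which microglia express strongly, were both among the 15 higher genes, a grouping made after their values were seen. Ly86, the partner of an immune receptor, was 11.01, 11.1, 13.3 and 11.9 FPKM in β-cat cOEs and 7.63, 7.15, 7.58 and 7.88 FPKM in controls. P2ry13, a receptor for ADP, was between 7.37 and 8.403 FPKM in β-cat cOEs and between 5.85 and 6.89 FPKM in controls. Of the 12 microglia genes listed, 9 had differences above 0 and 3 below, and the median difference was 0.04. Defining genes overlapped, with Cx3cr1 between 15.02 and 17.95 FPKM in β-cat cOEs and between 14.8 and 17.1 FPKM in controls, and the summed level of the 12 genes was 264 to 301 FPKM and 243 to 280 FPKM. In the other lines the Ly86 difference from controls was 0.03 in APC cKOs and 0.17 in APC/β-cat cKOs, and the β-cat cOEs did not differ from them past the test (limma adjusted p = 0.325 and 0.307).

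The remaining higher genes were Fut10, 2610524H06Rik, Fjx1, Rab40b, Ppap2b, Gsdmd and 0610040B10Rik. Fut10, a member of the fucosyltransferase family, was between 2.16 and 2.57 FPKM in β-cat cOEs and between 0.801 and 1.86 FPKM in controls. It set the β-cat cOEs apart from APC cKOs, where its mean was 0.743 FPKM, by 1.53 ± 0.21 (SE, limma adjusted p = 0.0108). It did not do so from APC/β-cat cKOs, where its mean was 3.11 FPKM (adjusted p = 0.468). Gsdmd, which forms pores in the membrane during inflammatory cell death, was between 1.04 and 1.53 FPKM in β-cat cOEs and between 0.845 and 0.968 FPKM in controls.

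Among the 15 lower genes, Camk1g had the smallest p outside that stretch. Camk1g, a calmodulin-dependent kinase of neurons that acts in dendrite growth, was 14.6, 14.9, 13.2 and 13.9 FPKM in β-cat cOEs and 25.1, 19.3, 22.1 and 17.2 FPKM in controls. All 4 β-cat cOE libraries were below the controls, at 67.6% of the control mean (difference -0.55 ± 0.12, SE, adjusted p = 0.726). Galnt9, an enzyme that starts O-linked glycans in the brain, was 19.1, 32.2, 26.7 and 25.4 FPKM in β-cat cOEs and 34.9, 36.04, 36.5 and 35.7 FPKM in controls. The controls were close together and the β-cat cOEs spread below them (difference -0.49 ± 0.12, SE, adjusted p = 0.925).

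Agpat4, an acyltransferase of phospholipid synthesis, was 21.9, 25.0, 24.5 and 22.3 FPKM in β-cat cOEs and 27.5, 26.8, 28.2 and 26.9 FPKM in controls. It was the only one of the 15 lower genes whose level differed past the test from another mutant line, being 0.36 ± 0.05 (SE) lower on the log2 scale than in APC/β-cat cKOs at 30.0 FPKM (limma adjusted p = 0.0045). Aldh3a1, an aldehyde dehydrogenase, lay between 1.03 and 1.68 FPKM in β-cat cOEs and between 2.02 and 3.77 FPKM in controls. Its difference was -0.92 ± 0.20 (SE, limma adjusted p = 0.726). Cplx1, complexin 1 of the vesicle release machinery, lay between 295 and 358 FPKM in β-cat cOEs and between 363 and 389 FPKM in controls. The others were Gm15645, Atxn3 (a deubiquitinase), 2310030G06Rik, Sgsm1, St8sia5 (a ganglioside sialyltransferase), Pappa2 (a protease of IGF-binding proteins), Prkag2 (a subunit of AMP-activated kinase) and Plk4 (a kinase of centriole duplication), with differences from -0.84 for Pappa2 to -0.22 for Prkag2.

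**Figure D3:**
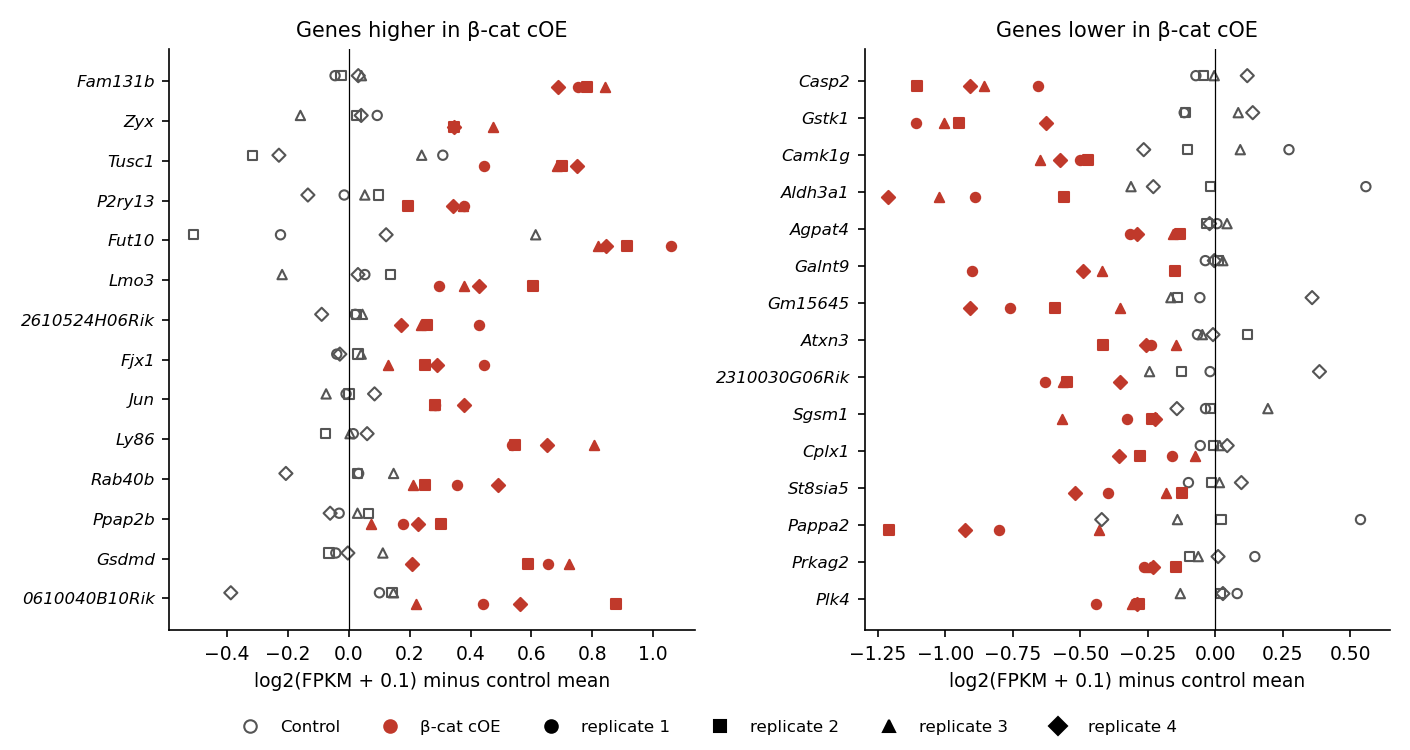
Level of 14 of the 15 higher genes and of the 15 lower genes in every library, as log2(FPKM + 0.1) minus the control mean, with open grey symbols for controls, filled red symbols for β-cat cOEs and symbol shapes for replicate numbers. The groups do not overlap in any row because the genes were chosen that way, and Fam131b, Gstk1 and Casp2 show the widest gaps.

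Canonical Wnt target and feedback genes were not separated from the controls. Of 23 such genes listed, 20 passed the filter, with 12 differences above 0 and 8 below, none under an unadjusted p of 0.05, and a median of 0.05. Axin2, the feedback scaffold used most often as a readout of the pathway, was 5.33, 5.75, 5.91 and 6.63 FPKM in β-cat cOEs and 6.26, 4.75, 5.81 and 6.01 FPKM in controls. The groups overlapped, with only β-cat cOE replicate 4 above all controls, and differed by 0.05 ± 0.11 (SE). Lef1, a TCF/LEF factor that is also a target, differed by 0.12 ± 0.24, Nkd1, a feedback inhibitor, by 0.16 ± 0.20, and Ccnd1, cyclin D1, by -0.02 ± 0.17 (SE). The secreted Wnt inhibitors Notum and Wif1 had the highest values on the list. Notum was 2.04, 1.18, 1.19 and 2.21 FPKM in β-cat cOEs and 0.926, 1.21, 1.22 and 1.24 FPKM in controls, and Wif1 was 1.54, 1.48, 0.45 and 2.46 FPKM against 0.459, 0.892, 1.08 and 1.10 FPKM. In both, β-cat cOE replicates 1 and 4 were above all controls and replicate 3 was not. For Wif1, replicate 2 was also above all controls and replicate 3 was just below them. The differences of 0.44 ± 0.35 for Notum and 0.56 ± 0.48 for Wif1 (SE) were within the spread. A separate set of 9 genes that the study marked as Wnt targets, among them Dcx, Pax6, Zic1 and Dll1, had 8 differences above 0 and 1 below (Camk4), with a median of 0.47 and 1 under an unadjusted p of 0.05. These were chosen partly on these libraries, and their median by library was 0.78, 0.39, -0.05 and 0.58 in β-cat cOEs and -0.22, -0.06, 0.20 and 0.13 in controls.

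The machinery that regulates and uses β-catenin was as level. All 21 genes of the destruction complex and the β-catenin cofactors passed the filter, none was under an unadjusted p of 0.05, and the median was -0.05. The values ran from -0.19 for Bcl9, a nuclear coactivator of β-catenin, to 0.20 for Pygo1, its partner in that complex. Gsk3a, one of the kinases that phosphorylate exon 3, was between 85.6 and 89.4 FPKM in β-cat cOEs and between 89.9 and 94.7 FPKM in controls, without overlap at a difference of -0.07 ± 0.05 (SE). Gsk3b overlapped, at -0.07 ± 0.11 (SE). Of 20 cadherin and catenin genes 19 passed the filter, with a median of 0.02 and none under 0.05. Cdh2, the N-cadherin that binds β-catenin at synapses, averaged 30.7 FPKM against 30.6 FPKM in controls, and Cdh4 had the highest value of the list at 0.30.

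The promoters of the leading genes were searched for the core of the TCF/LEF site, spelled CTTTG and then A or T at both of the next positions, on both strands. In the RefSeq window of 250 bases before to 50 after the start (GRCm38.p6), 11 of the 15 higher and 12 of the 15 lower genes had a sequence. Of these, 1 higher gene (Lmo3) and 2 lower genes (Agpat4 and Galnt9) held the core, and 18.9% of all genes with a promoter in the table did. Fam131b and Casp2 held none of the spellings in that window.

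The genes that the study printed as raised in the lines with elevated β-catenin had higher means here, unevenly so among libraries. Because the study chose them partly on these libraries, the counts are not independent evidence of a direction. The list held 67 genes, fewer than the paper counts as increased. Of the 67 genes 61 passed the filter, and all 61 had a difference above 0, with a median of 0.52. Under an unadjusted p of 0.05 were 14, in 7 the groups did not overlap, and no adjusted p was below 0.946. Of all genes tested, 2.3% were higher under that p and 1.46% were higher without overlap. Mycl1, a MYC-family transcription factor, was 6.32, 4.48, 3.68 and 5.45 FPKM in β-cat cOEs and 2.43, 4.17, 3.36 and 3.22 FPKM in controls. Only β-cat cOE replicate 3 overlapped the controls. Htr2c, the serotonin 2C receptor, was 19.8, 25.0, 20.6 and 27.2 FPKM against 19.7, 17.99, 12.01 and 17.5 FPKM, without overlap (0.47 ± 0.16, SE).

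Ndst4, an enzyme of heparan sulphate synthesis, was 10.8, 17.0, 9.35 and 10.6 FPKM in β-cat cOEs and 5.08, 8.79, 6.32 and 8.44 FPKM in controls. Naaa, a lipid amidase of lysosomes, was between 18.23 and 21.24 FPKM in β-cat cOEs and between 13.87 and 18.18 FPKM in controls. The groups did not overlap in either gene, though for Naaa the highest control nearly reached the lowest β-cat cOE. Dll1, a Notch ligand and the gene of the study's Wnt-marked set that was under an unadjusted p of 0.05, was 2.54, 2.23, 1.38 and 2.39 FPKM against 1.22, 1.74, 1.66 and 1.19 FPKM. Its replicate 3 lay among the controls.

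The same replicate stood with the controls across the list. The median of the 61 genes relative to the control mean was 0.83, 0.49, -0.05 and 0.83 in β-cat cOE replicates 1 to 4 and -0.09, -0.03, 0.24 and 0.01 in control replicates 1 to 4. Without β-cat cOE replicate 3, 36 of the 61 were under an unadjusted p of 0.05, against 10 without replicate 2 and 9 without replicate 4. Replicate 3 did not lack the chromosome 6 difference, where its Fam131b level was the highest of the 4.

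Markers of other cells and regions varied across the libraries in a similar way. The 20 immature neuron and neuroblast genes that passed the filter, such as Dcx and the Dlx factors, all had differences above 0, with a median of 0.36 and 2 under an unadjusted p of 0.05 (Gpc2 and Pbk). Over the 13978 genes tested, 6780 had differences above 0 and 2.3% were higher under that p. Members such as Gpc2, Pbk and Dcx are also on the study's raised list, chosen partly on these libraries. The counts are therefore not independent evidence. The median of the 20 genes by library was 0.88, 0.21, -0.02 and 0.64 in β-cat cOEs and -0.24, -0.10, 0.36 and 0.09 in controls. Their summed level was 1241 to 1357 FPKM in β-cat cOEs and 1239 to 1282 FPKM in controls. Stmn1, Stmn2 and Tubb3, with control means of 667, 292 and 253 FPKM, made up most of that sum. It therefore says little of low members such as Dcx, with a control mean of 5.14 FPKM. The 19 septal, hypothalamic and olfactory genes also all had differences above 0, with a median of 0.42, library medians from -0.31 up to 0.83 in β-cat cOEs and from -0.31 up to 0.29 in controls, and none under 0.05. Their summed level was 93.3 to 308 FPKM and 79.3 to 198 FPKM. The 12 ependymal and choroid plexus genes had 9 differences above 0 and 3 below, from -0.995 to 1.345, with a median of 0.57, and the median reached 1.89 in β-cat cOE replicate 4, where Foxj1, the master factor of motile cilia, was 3.82 FPKM against 0.373 to 1.18 FPKM in the other β-cat cOEs.

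Without β-cat cOE replicate 1, 16 of the 20 immature neuron genes and 13 of the 19 regional genes kept a difference above 0, and without replicate 4 the ependymal median was 0.13. Some genes stand on more than 1 of these lists, Gpc2 and Pbk on the raised list among them, so the lists are not independent of each other. The part of tissue composition in the raised genes was not tested. In bulk tissue a change in the number of cells of a type and one in RNA per cell cannot be told apart.

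**Figure D4:**
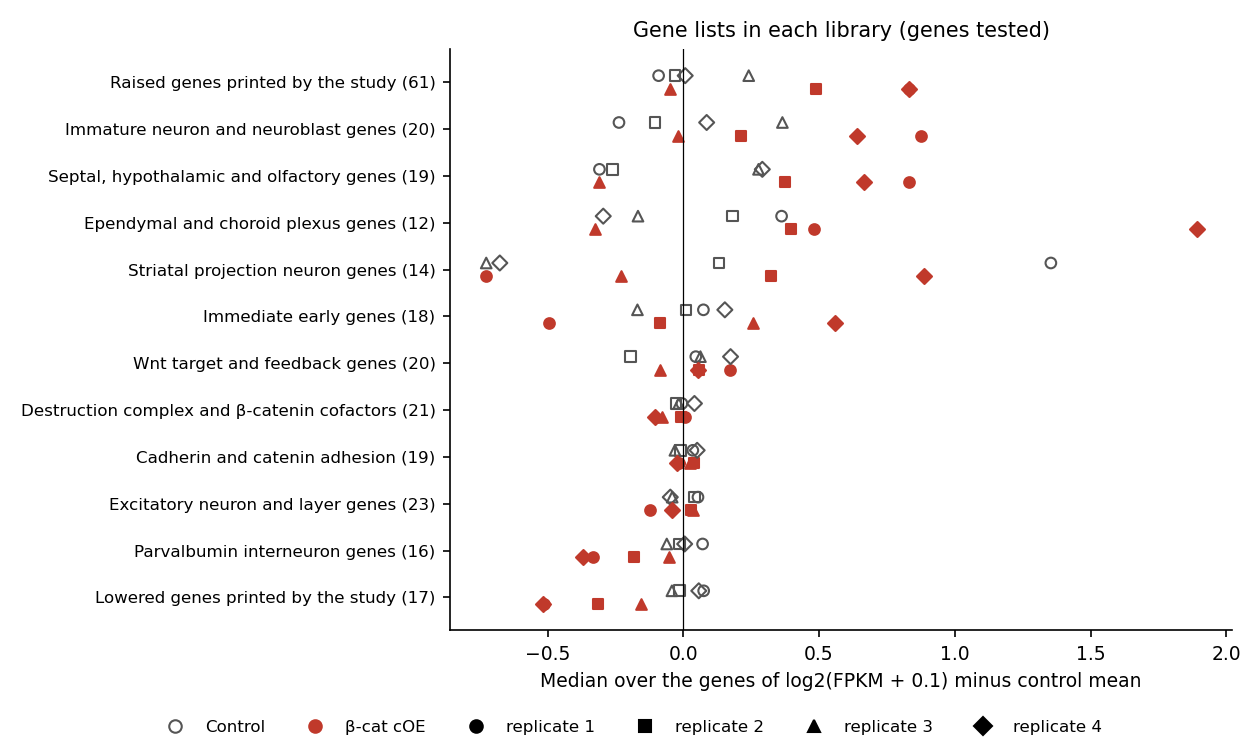
Median over the tested genes of each list (number in parentheses) in every library, as log2(FPKM + 0.1) minus the control mean, with open grey symbols for controls and filled red symbols for β-cat cOEs. The raised, immature neuron, regional and ependymal lists lie to the right of 0 in β-cat cOE replicates 1, 2 and 4. Replicate 2 stays inside the control range for the immature neuron list. Replicate 3 lies among the controls or just below them, and the Wnt, destruction complex and adhesion lists cluster near 0.

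The 17 genes printed by the study as lowered were more even. All 17 passed the filter and had a difference below 0, with a median of -0.41. Under an unadjusted p of 0.05 were 13, 7 of them without overlap. Of all genes tested, 2.77% were lower under that p and 1.62% were lower without overlap. The 17 genes too were chosen partly on these libraries. The median by library was -0.52, -0.31, -0.15 and -0.52 in β-cat cOEs and between -0.04 and 0.07 in controls. Leaving out each library in turn left between 9 of them under 0.05, without β-cat cOE replicate 4, and 14, without β-cat cOE replicate 3. Sema7a, a membrane-anchored semaphorin, was 43.8, 50.3, 57.6 and 45.7 FPKM in β-cat cOEs and 66.7, 62.2, 62.2 and 59.8 FPKM in controls. Cobl, an actin nucleator of dendrites, was 20.9, 23.2, 25.6 and 19.8 FPKM against 28.3, 27.1, 27.1 and 29.03 FPKM. In both, the 4 β-cat cOE libraries were below all controls and replicate 3 was the nearest to them.

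Cryab, a small heat shock protein of glia, was 36.99, 44.1, 38.9 and 36.6 FPKM in β-cat cOEs and 54.2, 42.0, 45.6 and 54.9 FPKM in controls, with replicate 2 inside the control range. Krt80, a keratin at low levels here, was between 0.372 and 1.59 FPKM against 1.76 to 3.21 FPKM. The widest value, -1.83 for Vill, an actin-binding villin-like gene, came with a library apart from the rest, since it was 0.184, 0.039, 1.03 and 0.131 FPKM in β-cat cOEs and between 0.755 and 1.30 FPKM in controls. Satb1, a chromatin organiser of interneurons, was 13.1, 14.1, 19.7 and 12.4 FPKM in β-cat cOEs and between 17.6 and 19.8 FPKM in controls, so that replicate 3 alone lay in the control range.

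Of the 10 autism-linked genes printed by the study, 9 passed the filter and 2 were under an unadjusted p of 0.05. Of all genes tested, 2.3% were higher and 2.77% lower under that p. The 10 genes come from the study's raised and lowered lists, chosen partly on these libraries, so the count is not independent evidence. Kirrel3, an immunoglobulin-superfamily adhesion molecule of synapses, was 18.2, 16.3, 14.9 and 15.3 FPKM in β-cat cOEs and 12.7, 13.2, 13.2 and 12.7 FPKM in controls. The groups did not overlap (0.31 ± 0.09, SE, adjusted p = 0.946). Pvalb was the other. C4b, a complement component, was 5.14, 4.39, 2.29 and 4.15 FPKM against 2.69 to 2.97 FPKM, with 3 libraries above and replicate 3 below all controls. Crhr2, a corticotropin-releasing hormone receptor under the filter, was between 0.366 and 0.583 FPKM in β-cat cOEs and between 0.052 and 0.256 FPKM in controls. Camk4, a nuclear calmodulin-dependent kinase, was 17.8, 18.8, 22.4 and 18.02 FPKM against 25.6, 22.7, 18.2 and 27.6 FPKM, where control replicate 3 lay among the β-cat cOEs.

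Parvalbumin interneurons, the fast-spiking inhibitory cells of the cortex, are not the excitatory cells in which this Cre mainly acts, and most genes of their list had lower means. Of the 16 genes listed for them, 14 had differences below 0, and the median was -0.24. Under an unadjusted p of 0.05 were 5 (Cplx1, Pvalb, Nefh, Kcnc2 and Syt2), all lower. Over the 13978 genes tested, 7196 had differences below 0 and 2.77% were lower under that p. Pvalb and Scn4b are also on the study's lowered list, which was chosen partly on these libraries. Cplx1 was picked above for its small p, so the counts are not independent of those choices. Pvalb, the calcium buffer that names the cells, was 42.7, 37.1, 61.7 and 41.1 FPKM in β-cat cOEs and 68.2, 61.2, 63.1 and 66.6 FPKM in controls. Replicate 3 lay in the control range and the other 3 lay well below it. The Pvalb difference was -0.531 ± 0.185 (SE, limma adjusted p = 0.946). In the prefrontal cortex of this line the paper found its mRNA reduced by qPCR and its protein reduced by immunoblot. Syt2, the synaptotagmin of parvalbumin interneuron terminals, was 4.97, 4.49, 7.49 and 5.40 FPKM against 9.68, 7.67, 6.45 and 7.95 FPKM. Kcnc2, a fast potassium channel, was 16.7, 18.5, 20.6 and 13.8 FPKM against 21.7, 22.6, 20.3 and 21.7 FPKM.

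The 2 members with differences above 0 were Slc32a1, the vesicular GABA transporter of all inhibitory neurons, at 0.10, and Tac1, a neuropeptide precursor that striatal neurons also express, at 0.06. Lhx6, a transcription factor of this lineage, had a difference of -0.28, with replicates 1 and 4 below the controls. Of 20 genes of other interneurons, none was under an unadjusted p of 0.05 and the median was 0.08. Gad1 was 318 FPKM in β-cat cOE replicate 1, 178 to 188 FPKM in the other β-cat cOEs and 157 to 246 FPKM in controls. Sst ranged from 211 to 364 FPKM in β-cat cOEs and from 302 to 447 FPKM in controls. Without β-cat cOE replicate 1, 2 of the 16 parvalbumin interneuron genes were under 0.05, and there were 3 without β-cat cOE replicate 4 or control replicate 1 or 4. Without β-cat cOE replicate 3 there were 6.

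**Figure D5:**
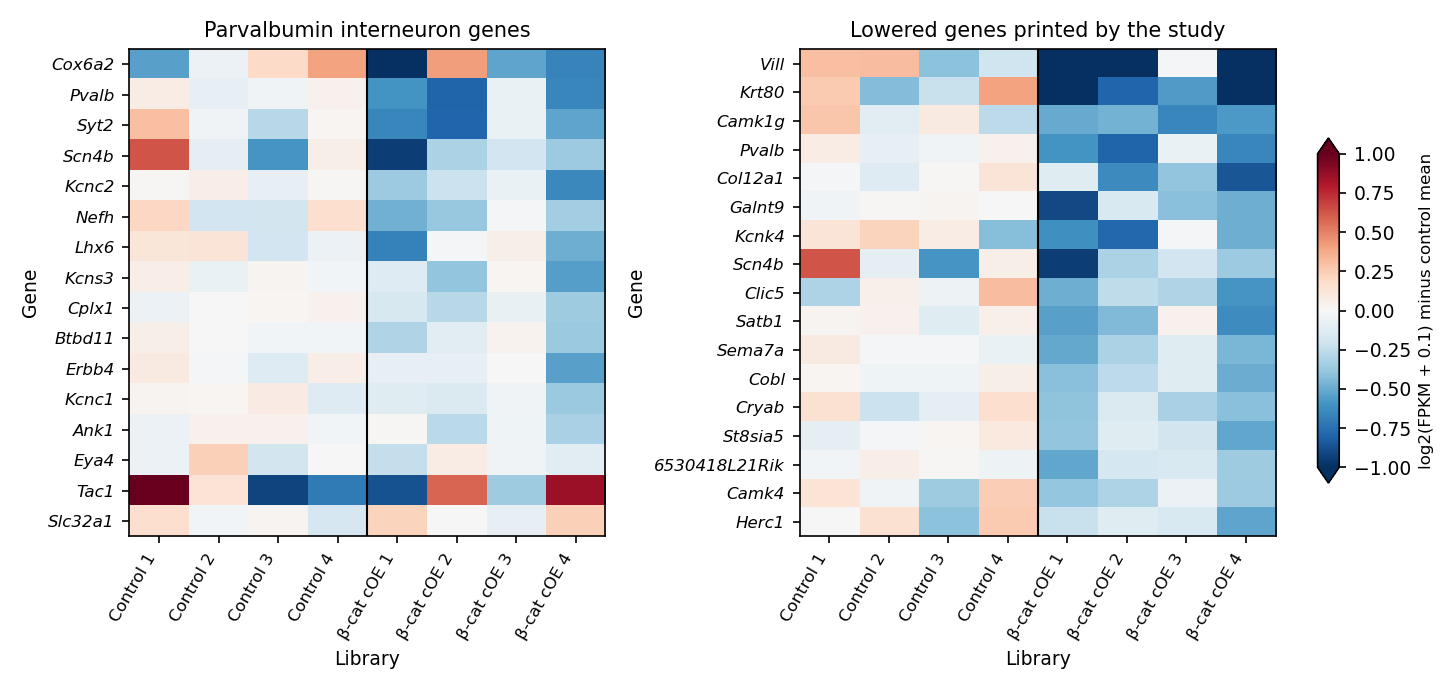
Heat maps of 16 parvalbumin interneuron genes and 17 lowered genes in the 8 libraries, coloured by log2(FPKM + 0.1) minus the control mean and cut at 1 in each direction. Blue fills β-cat cOE replicates 1, 2 and 4 in most rows, and replicate 3 is paler, with Pvalb near the control colour.

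The excitatory neurons in which Cre acts were described by 23 general and layer genes. Of these, 10 had differences above 0 and 13 below, with a median of -0.04. Neurod6, a bHLH factor of pyramidal neurons, was 39.1, 58.8, 66.5 and 52.8 FPKM in β-cat cOEs and 86.6, 64.5, 72.3 and 69.0 FPKM in controls. Fezf2, a factor of deep-layer projection neurons, was 10.2, 12.7, 14.7 and 11.4 FPKM against 14.2, 16.6, 15.2 and 13.6 FPKM. In both, replicate 3 was the highest of the β-cat cOEs and lay within the control range, and β-cat cOE replicate 1, with the highest Gad1 and Eomes, was the lowest. Cux1, an upper-layer factor, was the only gene of the list under 0.05 with a difference above 0, at 24.1 FPKM in replicate 1, 20.7 to 21.1 FPKM in the other β-cat cOEs and 17.5 to 20.9 FPKM in controls.

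Kinases of calcium signalling, to which Camk1g belongs, mostly had slightly lower means. Of 21 calcium and calmodulin kinase genes, 17 had differences below 0, with 1 higher and 3 lower under an unadjusted p of 0.05 and a median of -0.08. Of all genes tested, 2.3% were higher and 2.77% lower under that p. Camk1g, picked above for its small p and also printed by the study as lowered, is among the 3 lower, so the count is not independent of that choice. Camk2d, a minor CaMKII subunit of the brain, was 39.4, 38.97, 37.5 and 38.4 FPKM in β-cat cOEs and 32.1, 33.8, 30.7 and 36.4 FPKM in controls, without overlap, whereas Camk2a overlapped at -0.04 ± 0.07 (SE). Camkk1, a kinase that activates Camk1g and Camk4, was 39.7, 44.0, 42.4 and 41.9 FPKM against 46.1, 53.0, 50.1 and 44.0 FPKM, with 3 of the 4 β-cat cOEs below all controls and replicate 2 just inside the control range.

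Of 31 potassium and sodium channel genes, 21 had differences below 0, with a median of -0.07. Among 33 glutamate synapse genes, Homer1, a postsynaptic scaffold that activity induces, was the only gene under 0.05, at 36.6, 54.0, 46.1 and 38.1 FPKM against 96.2, 44.5, 61.7 and 63.1 FPKM. Control replicate 1, the female library, held the highest Homer1 level. None of 17 GABA synapse genes was under 0.05, and the medians were -0.04 and -0.05 for the glutamate and GABA lists.

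The 18 immediate early genes, which neuronal activity induces, had a median of 0.03, and by library it was -0.49, -0.09, 0.26 and 0.56 in β-cat cOEs and between -0.17 and 0.15 in controls. Jun and Ier2 were higher under an unadjusted p of 0.05, as were 2.3% of all genes tested. Jun was picked above for its small p, so the count is not independent of that choice. Glial and vascular lists had medians near 0, of 0.04 for 12 astrocyte genes, 0.01 for 14 oligodendrocyte genes and 0.03 for 10 endothelial genes. Gja1, connexin 43 of astrocytes, was the only gene under 0.05 among them, between 79.3 and 92.2 FPKM in β-cat cOEs and between 71.2 and 81.4 FPKM in controls. Gfap, the astrocyte filament that increases in reactive tissue, was 69.0, 65.3, 44.7 and 55.1 FPKM in β-cat cOEs and 45.9 to 48.6 FPKM in controls, with 3 libraries above and replicate 3 below all controls.

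Genes around the modified Ctnnb1 locus were examined because they are inherited with the floxed allele. Of 205 tested genes within 15 Mb of Ctnnb1 on chromosome 9, 2 were higher and 4 lower at an unadjusted p under 0.05. None was called, and the median was 0.01. Of all genes tested, 2.3% were higher and 2.77% lower at that p, shares that the counts in this window did not exceed. Under that p in the window were Vill, Manf, Stt3b and Myrip, which were lower, and Sema3b and Tmie, which were higher. Manf, an endoplasmic reticulum stress factor, was between 15.6 and 18.8 FPKM in β-cat cOEs and between 17.0 and 22.5 FPKM in controls.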

How the data were processed

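Poly(A) RNA of dissected prefrontal cortex was sequenced as paired-end TruSeq stranded libraries. The authors mapped the reads to mm10 with TopHat2 2.0.10 and made expression values with the Cufflinks suite (Cuffdiff 2.1.1 in the submitters' processing notes). The deposited table holds 23284 genes with 1 log2 value per library, read as log2(FPKM + 1) and turned back into FPKM. The base is not stated, but natural logs would give FPKM times transcript length in kilobases above 2837187 in every library, more than that scaling allows, whereas log2 gives at most 320037. FPKM rather than log2 values had been assumed when the tests were laid out, and the tests were kept. All value columns were used.

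Genes averaging 0.5 FPKM or more across the 16 libraries were tested on log2(FPKM + 0.1) with limma 3.58.1 in R 4.3.3 (a linear fit with contrasts, moderated by eBayes with an intensity trend). The pseudocount understates differences of low genes. All 4 genotypes entered the fit, which left 12 residual degrees of freedom. A gene was called when its p, adjusted by Benjamini-Hochberg over all genes tested, was under 0.05. Single genes were also compared with exact two-sided permutation tests. The fit was tested on simulated data. Plots and tables used Python 3.11.15, pandas 2.3.3 and matplotlib 3.10.9. Libraries were grouped by genotype label, and nothing says more of each mouse than that, so p-values measure the spread between libraries.

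Named genes were Ctnnb1, Apc, called genes, the 15 higher and 15 lower genes described in the text, and members of gene lists: all members of the Wnt, adhesion, printed and parvalbumin lists could be named, and elsewhere the 2 smallest p in each direction, with tissue markers. A few further list members were added after their values were seen. The lists and the comparison itself were chosen with earlier results of these data known. Lists were described by counts and medians, without a test. Alternatives were another pseudocount, other filters, scaling by quantiles or by median of ratios, moderation without a trend, a covariate for sex, the replicate number as a block, only these 2 groups, other adjusted p limits, and each library left out. In a check of pairing, the deviations of same-numbered libraries from their group means correlated between -0.218 and -0.016. Some members of the lists are not reported here.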

Additional observations from a re-analysis of the deposited data

Results flagged for a closer look

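Dixon's ratio, the gap of the most distant library over the range of its group, passed its limit in 12 of 198 groups of 4, where chance gives about 9.9. In β-cat cOEs these were replicate 1 for Gad1 (ratio 0.928), Eomes (0.864), Cux1 (0.865) and Plk4 (0.849), replicate 3 for Zyx (0.994), Naaa (0.874) and Vill (0.853), and replicate 4 for Jun (0.959). In controls these were replicate 1 for Xist (1.0) and Notum (0.896), replicate 3 for Satb1 (0.856) and replicate 4 for 0610040B10Rik (0.899). Gad1 and Eomes were high in the same library, at 318 and 10.5 FPKM, and Vill was 1.03 FPKM in the library where Pvalb and Satb1 were also at control levels.

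Between mutant lines, the β-cat cOEs were set apart by the limma contrast in 3 named genes. Apc was higher than in APC cKOs by 1.97 (adjusted p = 0.000426) and than in APC/β-cat cKOs by 2.16 (adjusted p = 4e-05). Fut10 was higher than in APC cKOs by 1.53 (adjusted p = 0.0108). Agpat4 differed from APC/β-cat cKOs by -0.36 (adjusted p = 0.0045). No cause was tested for any of these values.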

How the results depend on the processing

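Fam131b was called under all 17 alternatives of its fit, with a difference between 0.74 and 0.79 and an adjusted p of at most 0.0295. Casp2 was called in 8 of 17, with an adjusted p between 0.00258 and 0.925. The count of called genes was 2, and 1 with sex as a covariate, with only these 2 groups and at an adjusted p under 0.01. It was 1 to 3 when single libraries were left out, with 3 without control replicate 1 (Casp2, Cthrc1 and Fam131b) and 1 without β-cat cOE replicate 2, 3 or 4 or control replicate 2 or 4. The count of 708 at an unadjusted p under 0.05 stayed within 1.5 times of that value under each alternative. Same-numbered libraries did not deviate together, so the numbers were not taken as pairs. With the replicate number as a block 2 genes were called, Fam131b and Snord15b, Casp2 had an adjusted p of 0.925, and 532 were under an unadjusted p of 0.05. The near-zero difference of Ctnnb1 became 0.015 with quantile scaling, 0.004 with median-of-ratios scaling and 0.024 with sex as a covariate, and was -0.02 to 0.016 when single libraries were left out, with 0.001 without β-cat cOE replicates 2 or 4 or control replicate 2, 0.012 without β-cat cOE replicate 3 and 0.016 without control replicate 1. That of Apc was -0.036 to 0.081, with -0.022 and -0.036 without β-cat cOE replicates 1 and 2, and -0.017 and -0.008 without control replicates 2 and 3. The differences of 64 other named genes kept their sign. The cause was not tested for any of these changes. Without fragment counts the precision of low genes is unknown, and 4 libraries a group limit all tests.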
